A study of Mus musculus with 8 samples.

Results

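The replication-dependent histone genes of mouse encode the proteins around which DNA is wound, and were taken as every gene whose symbol starts with Hist1h, Hist2h, Hist3h or Hist4h and that had at least 50 unique molecular identifiers (UMIs, each standing for 1 captured transcript) over all cells. Of 67 such genes in the deposited table of 32285 genes, 62 reached that number: 5 linker histone H1 genes, 16 H2a genes, 16 H2b genes, 12 H3 genes and 13 H4 genes. Just inside the limit were Hist1h3h with 169 UMIs, Hist2h2be and Hist3h2ba with 190 UMIs each. Just outside it were Hist1h1t with 33 UMIs and Hist1h2aa with 27 UMIs. The UMI total over all cells was thus the measured value that chose the genes.

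Whole bone marrow cells of mice were cultured over a feeder layer of irradiated AFT024 cells, a fibroblast line from embryonic liver, in long-term culture medium with hydrocortisone. One group received only medium (media control, labelled long term culture media), and the other received deoxycholic acid, a bile acid that gut bacteria form by altering one from the liver, at 35 µM, both for 1 week. Lineage-negative cells, which lack the surface markers of mature blood cells, were sorted from both groups and captured with the 10x Genomics Chromium 3′ kit, so both groups share the feeder, the hydrocortisone and the gate. The labels give 4 samples in each group, but the deposited cells carry only the name of their group. The sources used here give neither mouse strain nor age, and do not say if the lettered samples were separate cultures.

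Each group is therefore 1 library, and no test between the groups was possible. Ratios are given with 95% intervals that cover counting error only, and they have no replicate check. The media control library kept 8495 cells holding 166356226 UMIs, with a per-cell median of 18831 UMIs. The deoxycholic acid library kept 7755 cells holding 117673251 UMIs, with a per-cell median of 14424. The libraries shared 25 barcodes. Levels are in CPM, a gene's share of the UMIs of its library or cluster, with 10000 CPM being 1%, and log2 ratios are deoxycholic acid over media control unless stated. A log2 ratio of at least 0.5 or at most -0.5 was taken as past the fold limit. UMIs were counted from transcript 3′ ends and not divided by length, so an order of histone genes refers to their UMIs and not to the amount of mRNA.

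Cells make most of their histone protein in S phase, when new DNA must be packaged, and replication-dependent histone mRNAs are made then and degraded when replication ends. H3 pairs with H4 and H2a with H2b in the nucleosome core, and H1 binds the linker DNA between nucleosomes. The genes lie in clusters, most lack introns, and many copies encode the same protein. Their main mRNAs end in a conserved stem-loop bound by the protein SLBP and not in a poly(A) tail. Capture by oligo-dT reaches them through internal runs of A or through polyadenylated forms, which some histone genes also make, mainly in differentiated cells. The histone values below describe that captured fraction.

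In the GENCODE M21 annotation of the GRCm38 build, 50 of the 62 genes lie on chromosome 13 between positions 21715763 and 23764406, 9 on chromosome 3, 2 on chromosome 11 and 1 on chromosome 6. An annotated transcript with the stem-loop was found for 44 of them. The stem-loop sites of 5 genes that lead the results are shown because the bases around this structure, and the A bases before it, bear on how the mRNA end can be captured. Capitals mark the stem-loop, and the 12 bases before it are in lower case.
Hist1h2ap: aaaaaaaaaaaaGGCTCTTTTCAGAGCCat
Hist1h2ae: aaaaaaaacaaaGGCTCTTTTCAGAGCCat
Hist1h4h: tacaaaaccaaaGGCCCTTTTCAGGGCCgc
Hist1h3b: ctggaacccaaaGGCTCTTTTCAGAGCCac
Hist1h1c: aacaatccaaaaGGCTCTTTTCAGAGCCac
The 12 bases before the stem-loop are all A in Hist1h2ap, and 11 of the 12 are A in Hist1h2ae. In Hist1h4h and Hist1h1c 8 of the 12 are A, and in Hist1h3b 5 are. Only Hist1h2ao, whose coding sequence is identical to that of Hist1h2ap, also has 12 among the 44 genes. Hist1h2ao stood at 1.11 CPM in the media control and 1.01 CPM with deoxycholic acid, while Hist1h2ap stood at 817 and 1651 CPM. How reads of identical copies were divided between the 2 rows, or whether they were counted at all, is not known.

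Near-identical copies limit what a single row can show. Of the windows of 90 bases in the annotated transcripts of Hist1h2ap, 7.63% occur in no other gene, and 92.4% of them also occur in Hist1h2ao. The coding ends of 5 H2a genes whose rows lay on different sides of 0 between the libraries are shown because they differ at few bases. Bases after the stop codon, 57 annotated for Hist1h2ap and 199 for Hist1h2ae, are not shown. Of the windows of Hist1h2ae, 68.1% occur in no other gene. Capitals mark bases that differ from Hist1h2ap.
Hist1h2ap: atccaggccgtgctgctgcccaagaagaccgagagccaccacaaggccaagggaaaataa
Hist1h2ai: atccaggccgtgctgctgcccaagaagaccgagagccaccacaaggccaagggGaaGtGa
Hist1h2an: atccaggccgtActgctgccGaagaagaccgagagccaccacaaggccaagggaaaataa
Hist1h2af: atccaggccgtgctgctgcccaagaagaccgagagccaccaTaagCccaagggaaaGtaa
Hist1h2ae: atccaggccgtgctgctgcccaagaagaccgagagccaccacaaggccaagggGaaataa
Over these last 60 coding bases the other 4 differ from Hist1h2ap at 1 to 3 bases, and over all 393 coding bases at 5 or 6. Identical coding sequences also join Hist1h4m with Hist1h4n and Hist2h3c1 with Hist2h3c2. Values of these copies are uncertain as single rows. A sum by class does not change when a read is given to another counted copy of that class. But a read that matched several copies and was left uncounted would be missing from the sum. Some shared sequence also lies outside the class. Gm20634, which is not one of the 62 genes, holds 88.5% of the windows of Hist2h2aa1, 77.7% of those of Hist2h3b and 100% of those of Hist2h3c1, and the H2b gene Hist1h2be holds 22.1% of those of Hist1h1e.

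Summed over the 62 genes, histone transcripts made up 0.492% of all media control UMIs and 0.621% of all deoxycholic acid UMIs. That is 4918 and 6213 CPM, a log2 ratio of 0.34 (95% interval 0.33 to 0.34), or 0.39 when cells were thinned to an equal depth of 5000 UMIs. A single gene carried much of the difference: without Hist1h2ap the sum stood at 4101 and 4562 CPM, a log2 ratio of 0.15. Past the fold limit, 19 of the 62 genes were higher with deoxycholic acid and 3 were lower. Among all 13317 genes with at least 50 UMIs, 4.13% were higher and 5.58% lower by the same limit. The median histone log2 ratio was 0.24, against 0.05 over all those genes, and 41 of 62 ratios were above 0, against 57.2% of all genes. By class, the higher genes were 8 of 13 for H4, 6 of 16 for H2a, 3 of 12 for H3, 2 of 16 for H2b and 0 of 5 for H1.

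**Figure D1:**
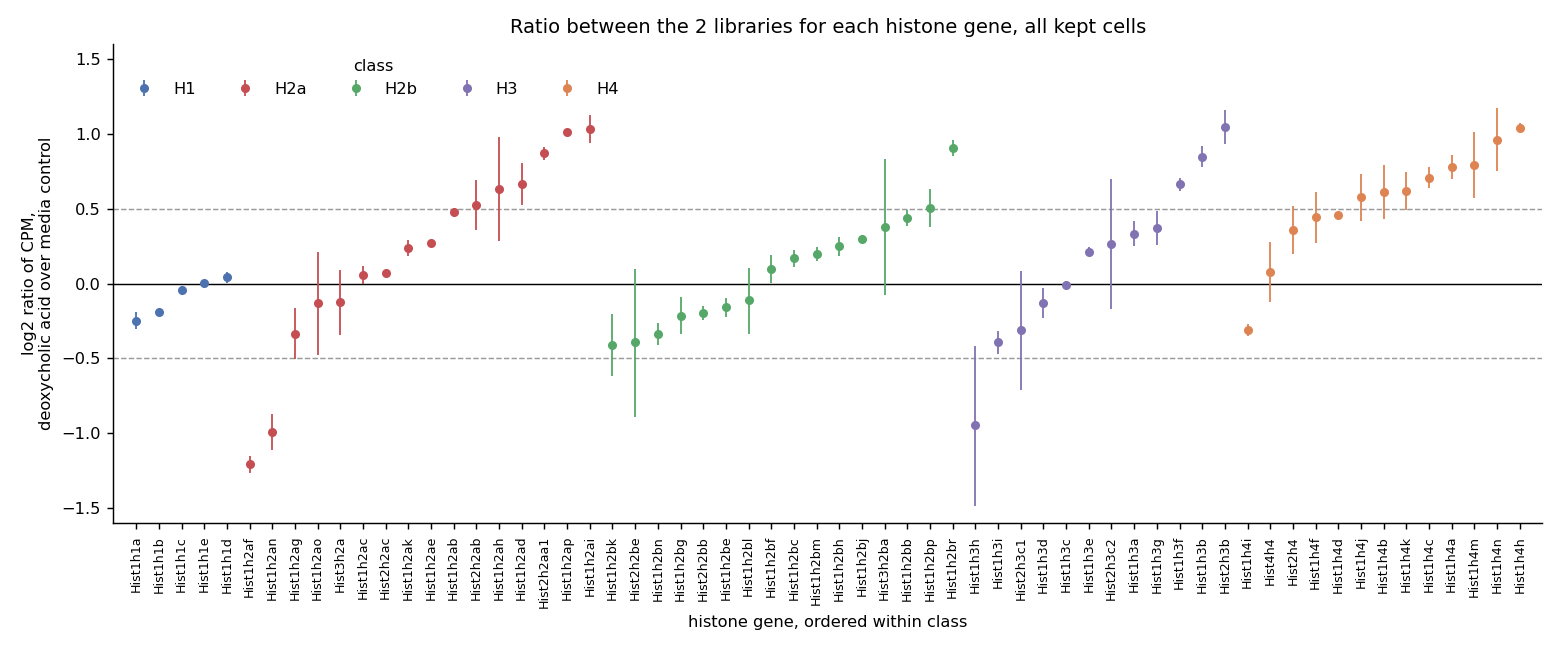
Each point is 1 histone gene, grouped by class and ordered within it, and its height is the log2 ratio of CPM between the libraries over all kept cells, with bars for the 95% counting interval and dashed lines at the fold limit of 0.5 either way. H1 genes lie between -0.25 and 0.04, 12 of 13 H4 genes lie above 0, and H2a genes spread from -1.21 to 1.03.

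H2a was the class with the widest spread and the class whose sum differed most of the 5, 1690 CPM in the media control and 2668 CPM with deoxycholic acid, a log2 ratio of 0.66. Hist1h2ap (chr13:21833026-21833507, minus strand), a gene for the canonical H2a protein, stood at 817 and 1651 CPM. Its log2 ratio was 1.01 (95% interval 1.00 to 1.02), and it was higher with deoxycholic acid in 18 of 18 clusters of cells. Without it the H2a sum was 873 and 1017 CPM, a log2 ratio of 0.22. Hist1h2ai, on the same chromosome, stood at 9.92 and 20.3 CPM and was higher in 13 of 13 clusters with enough UMIs. Hist2h2aa1, from the cluster on chromosome 3, stood at 39.9 and 72.9 CPM, a log2 ratio of 0.87. Both rows share most of their sequence with other genes: 11.2% of the windows of Hist1h2ai and 11.5% of those of Hist2h2aa1 occur in no other gene. Hist1h2ai and Hist2h2aa1 thus came close to the 2-fold difference of Hist1h2ap with fewer UMIs and, like it, with little sequence of their own.

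The other H2a genes past the limit on the higher side had fewer UMIs. Hist1h2ad stood at 4.71 and 7.46 CPM, Hist2h2ab at 3.50 and 5.04 CPM, and Hist1h2ah at 0.81 and 1.25 CPM. Both H2a genes past the limit on the lower side are near copies of Hist1h2ap. Hist1h2af (chr13:23533906-23534304) stood at 59.6 CPM in the media control and 25.8 CPM with deoxycholic acid. Its log2 ratio was -1.21 (95% interval -1.27 to -1.15), and it was lower in 14 of 14 clusters. Hist1h2an stood at 13.7 and 6.87 CPM, a log2 ratio of -0.99, and was lower in 11 of 11 clusters. So rows for genes that code for nearly the same H2a protein stood on opposite sides of 0 throughout the clusters compared. Whether reads were divided between these copies differently in the 2 libraries was not tested. Of the H2a genes with many UMIs, Hist1h2ae stood at 392 and 472 CPM, Hist2h2ac at 168 and 177 CPM, and Hist1h2ab at 107 and 148 CPM, just short of the limit with a log2 ratio of 0.48. The other 5 H2a genes lay between -0.33 (Hist1h2ag) and 0.24 (Hist1h2ak).

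H4, the core histone with a single protein sequence shared by nearly all its gene copies, was higher as a class, 731 CPM in the media control and 1022 CPM with deoxycholic acid. The class log2 ratio was 0.48, and the median over its 13 genes was 0.61. Hist1h4h (chr13:23531050-23531519) stood at 75.5 and 155 CPM, a log2 ratio of 1.04 (95% interval 1.01 to 1.07), and was higher in 17 of 17 clusters. Unlike Hist1h2ap, 59.8% of its windows of 90 bases occur in no other gene. Hist1h4d stood at 512 and 705 CPM, a log2 ratio of 0.46 just short of the limit, with 99.1% of its windows unique and a higher level in 17 of 18 clusters. Hist1h4c stood at 19.9 and 32.4 CPM, and Hist1h4a at 14.1 and 24.2 CPM. Those 4 H4 genes were thus higher in nearly every cluster compared, and each has most of its sequence to itself.

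The remaining H4 genes past the limit were each under 10 CPM in both libraries. Hist1h4k stood at 5.61 and 8.61 CPM, Hist1h4j at 3.87 and 5.76 CPM, and Hist1h4b at 2.96 and 4.52 CPM. The identical pair Hist1h4m and Hist1h4n stood at 1.90 and 3.29 CPM and at 1.89 and 3.69 CPM. One H4 gene lay below 0: Hist1h4i stood at 82.7 and 66.7 CPM, a log2 ratio of -0.31, and was lower with deoxycholic acid in 16 of 18 clusters. The other 3, Hist1h4f, Hist2h4 and Hist4h4, lay between 0.08 and 0.44.

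H3, the partner of H4, stood at 445 CPM in the media control and 510 CPM with deoxycholic acid, a log2 ratio of 0.20. Its 3 genes past the limit on the higher side were Hist2h3b at 6.28 and 12.96 CPM, Hist1h3b at 18.3 and 32.9 CPM, and Hist1h3f at 47.1 and 74.6 CPM. Hist2h3b, on chromosome 3, was higher in 10 of 10 clusters, and Hist1h3b and Hist1h3f in 14 of 14 each. Hist1h3h stood at 0.69 and 0.36 CPM with 114 and 42 UMIs in kept cells, a log2 ratio of -0.94 (95% interval -1.49 to -0.42). Hist1h3c and Hist1h3e did not reach the limit: Hist1h3c stood at 194 and 193 CPM and Hist1h3e at 118 and 136 CPM. The other 6 H3 genes lay between -0.39 (Hist1h3i) and 0.37 (Hist1h3g).

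H2b, the partner of H2a, stood at 446 and 516 CPM, a log2 ratio of 0.21. Hist1h2br stood at 32.3 and 60.4 CPM, a log2 ratio of 0.90, and was higher in 16 of 16 clusters, but 86.8% of its windows also occur in Hist1h2bq. Hist1h2bp stood at 6.37 and 9.04 CPM, with a log2 ratio of 0.50 at the limit. Hist1h2bj, the H2b gene with the most UMIs, stood at 121 and 149 CPM, Hist2h2bb at 62.8 and 54.9 CPM, and Hist1h2bm at 48.6 and 55.8 CPM. Of the 16 H2b genes, 9 lay above 0 and 7 below, and the remaining 11 lay between -0.41 (Hist1h2bk) and 0.44 (Hist1h2bb).

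H1, the linker histones, was the class that was lower in sum, 1606 CPM in the media control and 1496 CPM with deoxycholic acid, a log2 ratio of -0.10 (95% interval -0.11 to -0.09). None of its 5 genes passed the fold limit. Hist1h1b stood at 825 and 722 CPM, a log2 ratio of -0.19, and was higher with deoxycholic acid in 3 of 18 clusters. Hist1h1e stood at 517 and 518 CPM, and the sign of its ratio, 0.00, changed with the scaling. Hist1h1c stood at 138 and 133 CPM, and the other two, Hist1h1a and Hist1h1d, had log2 ratios of -0.25 and 0.04. The make-up of histone UMIs differed accordingly: H1 held 32.7% of them in the media control library and 24.1% in the deoxycholic acid library. H2a held 34.4% and 42.9%, but the H2a genes other than Hist1h2ap held 17.7% and 16.4%.

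Single genes were then followed inside each cluster. Of 43 histone genes with enough UMIs in at least 10 clusters, 10 were higher in every cluster compared: Hist1h2ai, Hist1h2ap, Hist1h2bb, Hist1h2br, Hist1h3b, Hist1h3f, Hist1h4a, Hist1h4c, Hist1h4h and Hist2h3b. Hist1h2af and Hist1h2an were lower in every cluster compared. Among all 8335 genes measured in at least 10 clusters, 5.37% were higher in every one and 5.33% were lower in every one.

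**Figure D2:**
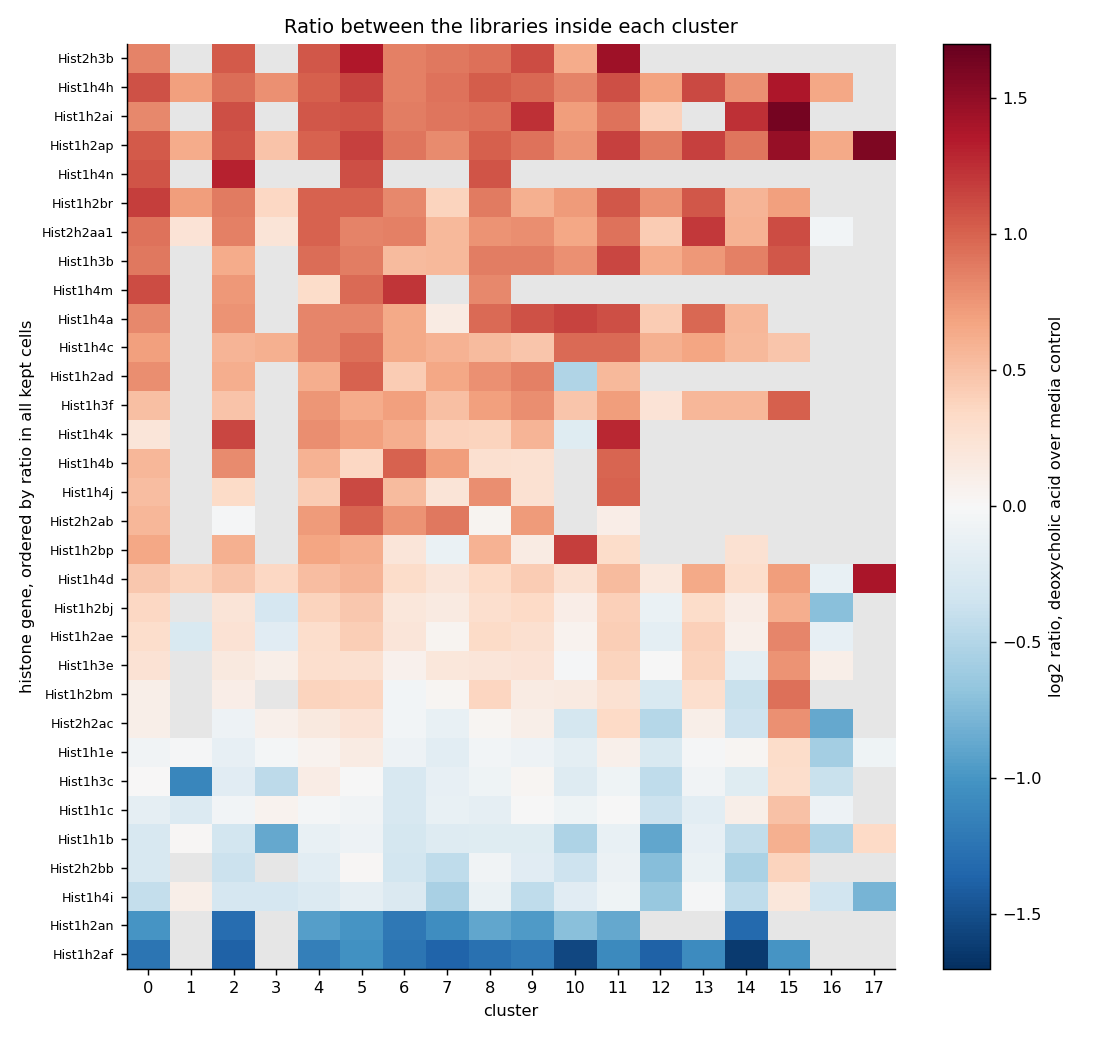
Rows are the histone genes given with values, ordered by their ratio over all kept cells, columns are clusters 0 to 17, and colour is the log2 ratio between the libraries inside the cluster, red where deoxycholic acid is higher and blue where it is lower. Grey marks fewer than 50 UMIs over both libraries or none in 1 of them. Hist1h2ap and Hist1h4h are red and Hist1h2af and Hist1h2an blue in every cluster where they have a value.

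Many H2a genes stand head to head with an H2b gene and share the stretch between the starts. The annotation gives 11 head-to-head pairs of histone genes, 10 of an H2a with an H2b gene and 1 of Hist1h2bh with Hist1h3f, with starts 176 to 660 bases apart. In 4 of the 11 both genes lay on the same side of 0. Hist1h2ap and Hist1h2br, 236 bases apart, had log2 ratios of 1.01 and 0.90. Hist1h2an and Hist1h2bp, 243 bases apart, had -0.99 and 0.50, and Hist1h2ai and Hist1h2bl, 279 bases apart, had 1.03 and -0.11. The shared stretches of the first 2 pairs are shown, since the ratios of one pair lay together and those of the other on different sides of 0. They are RefSeq sequences of GRCm38.p6 on the plus strand. The second is shown as far as the RefSeq window of Hist1h2bp reaches, without the bases nearest to Hist1h2an. Capitals mark CCAAT on either strand, the letters of a box bound by the factor NF-Y.
Hist1h2ap and Hist1h2br, chr13:21833508-21833742: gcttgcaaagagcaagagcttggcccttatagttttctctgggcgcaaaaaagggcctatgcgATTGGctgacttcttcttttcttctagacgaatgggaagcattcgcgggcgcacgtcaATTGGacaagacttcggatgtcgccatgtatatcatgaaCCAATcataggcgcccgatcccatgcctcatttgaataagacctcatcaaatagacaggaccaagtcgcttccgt
Hist1h2an and Hist1h2bp, chr13:21787238-21787460: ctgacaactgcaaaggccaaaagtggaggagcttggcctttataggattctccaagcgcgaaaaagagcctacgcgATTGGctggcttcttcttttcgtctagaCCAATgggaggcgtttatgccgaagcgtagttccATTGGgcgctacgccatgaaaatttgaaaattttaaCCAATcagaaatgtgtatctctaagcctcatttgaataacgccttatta
The stretches as shown hold CCAAT 3 and 4 times, and neither holds the octamer ATTTGCAT. In the 250 bases before the start, on either strand, CCAAT occurred in 45 of the 56 histone genes with a RefSeq promoter and in 33.8% of all 32851 promoters. It was in all 15 H2a, all 14 H2b and all 5 H1 promoters but in 3 of 12 for H4. The octamer occurred in 6 of 15 H2a and 6 of 14 H2b promoters, in none of the other classes, and in 526 of all 32851 promoters. TATAAA occurred in 27 of the 56 and in 12.4% of all promoters.

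Clusters made without any histone gene were used to follow the genes along the stages present. Clusters 0, 2 and 13 were granulocyte-monocyte progenitor-like by Elane and Prtn3, with Mpo raised in clusters 2 and 13. In cluster 0 only Elane, Prtn3 and Ms4a3 of the 8 listed progenitor markers were raised. Camp, a listed immature neutrophil marker, stood at 7293 CPM there in the media control, against 616 CPM in cluster 2. Clusters 3, 4 and 9 were immature neutrophil-like by Camp, Ngp and Ltf. Cluster 1 was mature neutrophil-like by Mmp9, Cxcr2 and Retnlg, and cluster 16 basophil and mast cell-like by Prss34 and Mcpt8. The other clusters with at least 50 cells in each library stay unnamed and are given by their leading genes. In the progenitor-like cluster 0 the summed histone level was 5215 CPM in the media control and 6615 CPM with deoxycholic acid. In the immature neutrophil-like cluster 4 it was 5705 and 7395 CPM. It was 373 and 398 CPM in the mature neutrophil-like cluster 1, and 590 and 619 CPM in cluster 3, the immature neutrophil-like cells led by Stfa2 and Ltf. Histone transcripts were thus scarce in clusters 1 and 3 of both libraries and plentiful in clusters 0 and 4. Yet the unnamed cluster 7, with Camp at 20507 CPM and Ltf at 3323 CPM in the media control, had a histone sum of 5434 CPM. In cluster 3 Camp and Ltf stood at 21326 and 4103 CPM.

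In both libraries the 2 highest levels were in unnamed clusters with genes of mitosis among their leading genes. Cluster 11, led by Cenpf and Nusap1, had 7031 and 9550 CPM, and cluster 8, led by Lpl and Cenpf, had 7165 and 8905 CPM. In these 2 clusters the S phase list, which holds no histone gene, stood lower than in cluster 0, at 2156 and 2215 CPM in the media control against 3085 CPM, while the G2 and M phase list stood higher, at 10729 and 10364 CPM against 6316 CPM. Cluster 7, led by Ltf with Kif23 and Aspm, had the highest level of that G2 and M phase list, 13083 CPM, and a histone sum of 5434 and 6002 CPM. Of these 3 clusters, the one with the highest G2 and M phase level thus had the lowest histone sum. Cluster 3, close to cluster 7 in Camp and Ltf, stood at 2579 CPM in the G2 and M phase list of the media control. Top2a, the topoisomerase of late S phase to mitosis, stood at 628 CPM in cluster 11 and 15.8 CPM in cluster 1 of the media control.

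The summed histone level was higher with deoxycholic acid in 17 of 18 clusters, with log2 ratios from -0.07 in the basophil and mast cell-like cluster 16 to 0.79 in cluster 15, led by Csta2 and Fn1. In cluster 15 it stood at 3159 and 5451 CPM, and the G2 and M phase list stood at 5815 and 6828 CPM there. By class, H2a was higher with deoxycholic acid in 18 of 18 clusters and H4 in 17, H2b and H3 in 12 each, and H1 in 2. Without Hist1h2ap the H2a sum was higher in 12 of 18 clusters and the sum of all histone genes in 13 of 18. The log2 ratio of all histone genes was 0.09 (95% interval 0.01 to 0.18) in cluster 1. In cluster 3 it was 0.07 (95% interval 0.00 to 0.13). In cluster 17, of 86 and 64 cells, it was 0.44 (95% interval 0.25 to 0.64), with a media control sum of 839 CPM. Only 6 histone genes had enough UMIs to compare there. The S phase list stood at 1944 and 2499 CPM in cluster 17, Camp at 1068 and 2755 CPM, and Elane at 1004 and 213 CPM. Weighting the 18 clusters alike gave a summed log2 ratio of 0.28, against 0.34 over all cells.

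**Figure D3:**
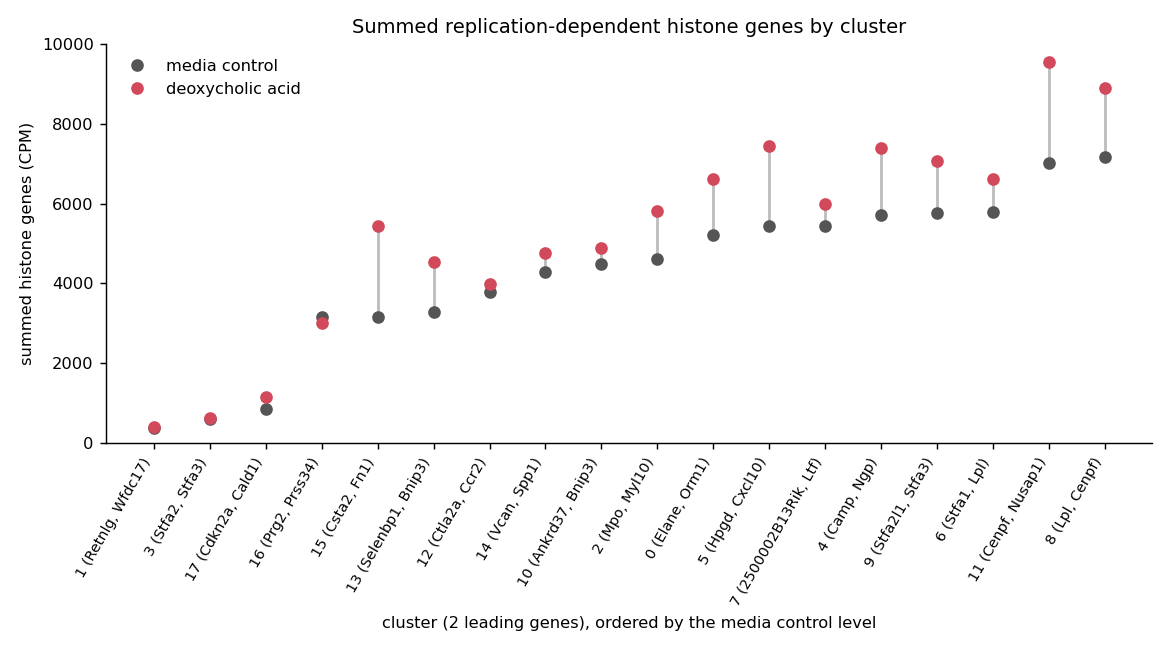
For each cluster with at least 50 cells in each library, named by its 2 leading genes and ordered by the media control, the points give the summed CPM of the 62 histone genes in the media control (grey) and deoxycholic acid (red) libraries. Levels run from 373 CPM in cluster 1 to 7165 CPM in cluster 8 of the media control, and the red point is higher in 17 of 18 clusters.

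To compare cells by replication, the cells of each library were ranked by the share of their UMIs in the S phase list of 46 replication genes and divided into 4 equal parts. These parts are ranges of a score and not cell types; between 2.07% and 20.8% of the cells of a part lay within 5% of a limit. In the media control the summed histone level was 1110, 4414, 5403 and 6573 CPM from the lowest to the highest part. With deoxycholic acid it was 1257, 5939, 7310 and 7698 CPM. The highest part over the lowest gave log2 ratios of 2.57 and 2.61. Cells of clusters 1 and 3, both neutrophil-like, fill much of the lowest part. Of its cells, cluster 1 gave 42.5% and 42.4%, and cluster 3 gave 26.3% and 27.6%. The median depth of the lowest part in the media control was 8794 UMIs, against 22949 in the highest part. Without clusters 1 and 3 the ratios were 0.92 and 0.76.

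Gene by gene, 60 of 62 histone genes were at least 2-fold higher in the highest part than in the lowest in the media control, where 25.1% of all genes were. With deoxycholic acid it was 58 of 62, where 22.4% of all genes were. Without clusters 1 and 3, when the remaining cells were divided again, the counts were 28 of 62 in the media control library, where 6.59% of all genes passed, and 19 of 62 in the other, where 5.6% did. There the median histone log2 ratio of the highest over the lowest part was 0.93 in the media control library and 0.80 in the other, and 60 and 58 of the 62 lay above 0, against 57.7% and 53.6% of all genes. Hist1h1a, a linker histone, had the steepest course, from 1.29 to 77.7 CPM in the media control and from 0.76 to 65.6 CPM with deoxycholic acid. Its neighbours Hist1h3a and Hist1h4a, within the same stretch at chr13:23760692-23764406, went from 1.79 to 28.3 CPM and from 1.19 to 24.7 CPM in the media control. In the third part Hist1h1a stood at 40.1 CPM, Hist1h3a at 14.5 CPM and Hist1h4a at 16.2 CPM, well short of their level in the highest part. Hist1h4d, by contrast, stood at 559 CPM in the second part and 590.2 CPM in the highest. These 3 neighbours were thus high late along the score.

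Over all kept cells a few genes were not 2-fold higher in the highest part. Hist1h2bc, an H2b gene, was nearly level, at 28.1 and 32.9 CPM in the lowest and highest part of the media control and 24.7 and 35.4 CPM with deoxycholic acid. Hist3h2a, from the small group on chromosome 11, stood at 3.63 and 3.09 CPM in those parts of the media control, and 3.94 and 1.86 CPM with deoxycholic acid. With deoxycholic acid, Hist3h2ba and Hist2h2be, both under 1 CPM, were also below the 2-fold limit.

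Within matching parts the libraries kept the class pattern. From the lowest to the highest part, the H2a log2 ratio was 0.66, 0.73, 0.75 and 0.55. Much of that rested on Hist1h2ap. Without it the H2a sum in the media control was 141, 746, 978 and 1206 CPM. With deoxycholic acid it was 166, 933, 1213 and 1304 CPM. The H4 ratio was 0.23, 0.56, 0.55 and 0.40. The H1 ratio was -0.29, 0.00, -0.01 and -0.18. H2b and H3 lay between, from 0.03 to 0.30 and from 0.09 to 0.29. The S phase list itself stood at 1552 and 1489 CPM in the second part and 4514 and 4608 CPM in the highest. The G2 and M phase list was higher with deoxycholic acid in every part, at 4829 and 4952 CPM in the lowest, 9121 and 10754 CPM in the second, 7342 and 8598 CPM in the third and 6252 and 7208 CPM in the highest. Hmgb2 alone held 3217 and 4203 of that list's 7176 and 8344 CPM over all kept cells. The part of the list's level in the histone difference was not tested.

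**Figure D4:**
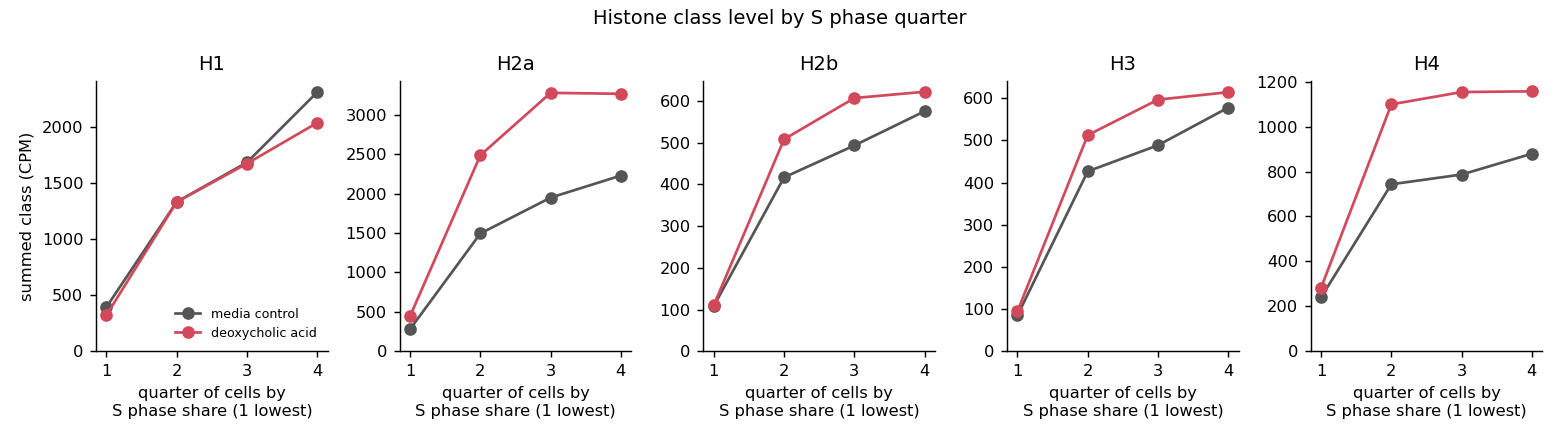
Each panel is 1 histone class; the horizontal axis gives the 4 parts of cells from the lowest to the highest share of S phase UMIs, and the vertical axis the summed CPM of the class in the media control (grey) and deoxycholic acid (red) libraries. H2a and H4 lie apart from the second part on, at 1950 and 3279 CPM for H2a in the third part. Without Hist1h2ap, which is included in the panel, the H2a sum there was 978 and 1213 CPM. The H1 points lie together in both middle parts and at 2311 and 2038 CPM in the highest.

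Neutrophils stop dividing as they mature, so the mature neutrophil-like cluster 1, which held 11.1% and 10.9% of cells despite the lineage-negative gate, was used to ask which histone transcripts are captured in cells that have largely left the cycle. Compared with all other cells, the median histone log2 ratio in cluster 1 was -4.75 in the media control library and -4.98 in the other, against -0.18 and -0.16 over all genes. In the media control 54 of 55 histone genes with UMIs there were at least 2-fold lower, where 30.2% of all genes were, and with deoxycholic acid 50 of 52, where 29.3% were. Elane, a granule enzyme gene of progenitors, stood at 58.0 CPM in cluster 1 and 6503 CPM in cluster 0 of the media control, and RNA carried over from other cells was not separated from a cell's own.

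Hist3h2a was the 1 histone gene above 0, at 5.22 CPM in cluster 1 and 2.59 CPM in the other cells of the media control, and at 4.15 and 2.40 CPM with deoxycholic acid. It rested on 35 and 21 UMIs there. Of all genes, 45% lay above 0 in the media control library and 45.3% in the other. Hist1h1c, a linker histone, stood at 67.7 CPM in cluster 1 against 141 CPM in other cells, a log2 ratio of -1.06, and -1.25 with deoxycholic acid. Hist1h2bc stood at 13.9 against 32.5 CPM, and Hist1h1e 101 against 535 CPM. By contrast Hist1h1b, also a linker histone, stood at 13.4 against 859 CPM, and Hist1h2ap stood at 34.9 against 850 CPM. The H1 class thus held 191 of the 373 histone CPM in cluster 1 of the media control.

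The genes were also grouped by their annotated 3′ end. In GENCODE M21, 22 genes have a transcript that runs at least 100 bases past the stem-loop, and 22 end within 100 bases of it. The other 18 have no stem-loop inside the annotated transcript. That set is mixed: the annotation of Hist1h1b ends at the stop codon, but Hist1h2bc and Hist1h2br have 742 and 1803 bases after it. Only genes with UMIs in cluster 1 have a ratio of cluster 1 over other cells. In the media control these were 21, 21 and 13 genes of the 3 sets, with median log2 ratios of -3.46, -4.93 and -5.78. With deoxycholic acid they were 20, 18 and 14 genes, with medians of -3.96, -5.51 and -5.35. Some rest on few UMIs there, such as Hist1h2af with 2 in each library. Between the libraries, over all kept cells, the sums of the 3 sets had log2 ratios of 0.22, 0.71 and -0.14. The second set holds Hist1h2ap and Hist1h4h. Most of the third set's 1176 and 1067 CPM came from Hist1h1b, at 825 and 722 CPM. Of its 18 genes, 6 were past the limit on the higher side, among them Hist2h3b, Hist1h2ai and Hist1h2br. On the lower side were 3, Hist1h2af, Hist1h2an and Hist1h3h. Of all genes, 4.13% were higher and 5.58% lower by that limit. By uniqueness, the 37 genes with at least 50% of windows unique had a summed log2 ratio of 0.13, and the 25 others 0.78. The medians of those 2 sets, 0.24 and 0.27, were close, and Hist1h2ap is in the second. Of the 25 genes with mostly shared sequence, 11 were past the limit on the higher side and all 3 lower genes were among them, while 8 of the 37 others were higher.

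**Figure D5:**
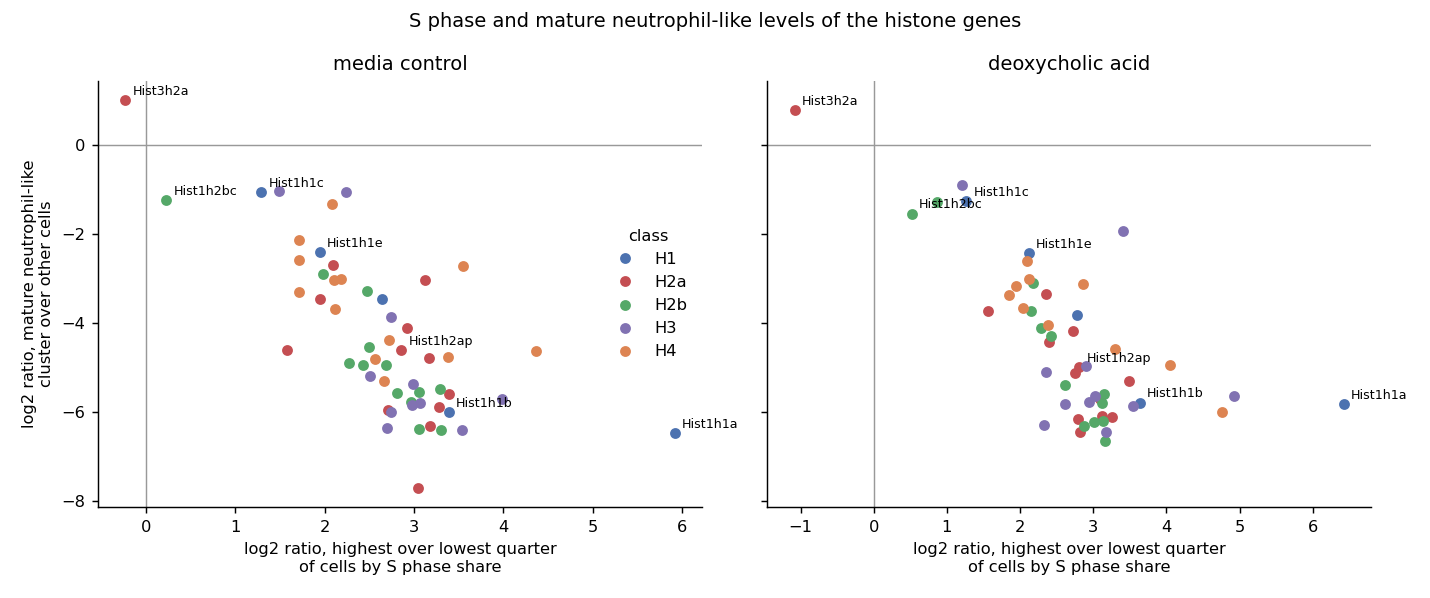
Each point is 1 histone gene with UMIs in cluster 1, coloured by class, in the media control (left) and deoxycholic acid (right) libraries. The horizontal axis is the log2 ratio of the highest over the lowest part of cells by S phase share, and the vertical axis is the log2 ratio of the mature neutrophil-like cluster 1 over other cells. Hist3h2a is above 0 on the vertical axis in both panels, Hist1h1c lies at -1.06 and -1.25 and Hist1h2bc at -1.23 and -1.54, and Hist1h1a is at 5.92 and 6.43 on the horizontal axis.

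Genes that act around histones were taken from fixed lists. S phase genes without histones were level: of 46, none was past the limit on the higher side and 2 were on the lower, with a median log2 ratio of 0.00. Dut, which clears dUTP, stood at 275 and 210 CPM, Rrm2, a ribonucleotide reductase subunit, at 155 and 150 CPM, and Pcna, the replication clamp, at 169 and 113 CPM. Atad2, a chromatin ATPase gene, stood at 145 and 159 CPM, and Tipin, of the fork protection complex, at 95.6 and 65.3 CPM. Of 34 G2 and M phase genes, 0 were higher past the limit and 1 was lower, with a median of 0.17. Mki67 stood at 415 and 527 CPM and Top2a at 359 and 442 CPM, Cks2 at 439 and 398 CPM, while Cdk1, the mitotic kinase, stood at 94.7 and 60.6 CPM. In sum the G2 and M phase list stood at 7176 CPM in the media control and 8344 CPM with deoxycholic acid. Hmgb2 alone held 3217 and 4203 CPM of those sums, and so most of the difference between them. Of the 34 genes, 24 lay above 0.

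The machinery of histone mRNA differed little. Of 27 measured genes for histone transcription and 3′ processing, 0 were higher past the limit and 1 was lower, Lsm1, which acts in mRNA decay, at 43.7 and 25.3 CPM, and the list's median was 0.08. Slbp, which binds the stem-loop, stood at 97.8 and 101 CPM, and Npat, the activator of histone genes, at 14.7 and 16.4 CPM. Lsm10 and Lsm11, parts of the U7 particle that guides cleavage after the stem-loop, stood at 18.4 and 16.4 CPM and at 14.4 and 12.8 CPM. The 4 of highest level were Lsm4 at 300.1 and 277 CPM, Yy1, Ppp2ca and Tut7, the last 3 with log2 ratios between 0.08 and 0.23. In the polyadenylation list 0 of 20 were higher and 1 was lower, Nudt21, which helps choose poly(A) sites, at 80.4 and 55.3 CPM, with a median of 0.02. Pabpc1, the poly(A)-binding protein gene, stood at 365 and 284 CPM, and Pabpn1 at 226 and 204 CPM, while Fip1l1 and Rbbp6 had log2 ratios of 0.21 and -0.08.

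Replication-independent histones, which are not limited to S phase and come mostly from polyadenylated mRNA, stood lower with deoxycholic acid. Cenpa, in this list, is also on the G2 and M phase list. Of 11, 3 lay above 0, against 57.2% of all genes, 0 were past the limit on the higher side and 1 on the lower, with a median log2 ratio of -0.28. H2afz, an H2a variant of gene starts, stood at 2388 and 1881 CPM, H3f3b at 1758 and 1425 CPM, H3f3a at 1081 and 759 CPM, and H2afj at 549 and 544 CPM. H3f3a and H3f3b encode the same H3 variant, and both were lower in all 18 clusters. Replication-dependent H3 genes and these variant H3 genes were thus on different sides of 0 in sum.

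Of 23 histone chaperone and acetylation genes, 0 passed the limit either way, with a median of 0.03. Npm1 stood at 1293 and 1040 CPM, Set at 582 and 631 CPM, and Nap1l1 and Anp32e differed by log2 ratios of -0.04 and -0.03. Of 8 high mobility group genes, Hmga1 was higher past the limit, at 32.2 and 49.3 CPM, and Hmgn3 lower, at 2.12 and 1.39 CPM, with a list median of 0.02. Hmgb1, Hmgn2 and Hmgn5 had log2 ratios of 0.15, 0.08 and -0.03. Hmgb2, a chromatin protein gene that is also on the G2 and M phase list, stood at 3217 and 4203 CPM and was higher in 18 of 18 clusters.

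Stage markers differed between the libraries as well. Summed granulocyte-monocyte progenitor markers stood at 10957 CPM in the media control and 9093 CPM with deoxycholic acid, with 2 of 8 past the limit on the lower side. The 9 immature neutrophil markers stood at 35658 and 37085 CPM and the 8 mature neutrophil markers at 1414 in both. Monocyte markers summed to 1164 and 1261 CPM, with 1 of 8 past the limit on the higher side and 3 on the lower. Basophil and mast cell markers stood at 181 and 143 CPM with 4 of 7 past the limit on the lower side, and eosinophil markers at 138 and 121 CPM with 2 of 6. T and NK cell markers stood at 128 and 101 CPM, with 2 of the 6 listed genes measured. Nkg7, on that list, is also a leading gene of the progenitor-like clusters 0 and 2. The sums for the 8 other marker lists were each under 60 CPM, among them stromal markers at 2.55 and 3.16 CPM, erythroid at 5.11 and 4.44 CPM, and megakaryocyte at 18.8 and 11.9 CPM. The part of these levels in the histone differences was not tested. With clusters weighted alike the summed histone log2 ratio was 0.28, as given above, and the part of the stage mix in the value over all cells was not tested further.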

How the data were processed

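Per the labels' protocols, cells were captured with the 10x Genomics 3′ kit; the submitters' processing notes name Cell Ranger 6.0. The build, the annotation and the handling of multi-mapping reads were not given in the sources used here. Raw UMI counts, not normalized, were deposited by the authors as 1 table whose columns name only the group. Each group was 1 library, so no test was made.

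Cells with at least 300 genes and at most 10% mitochondrial UMIs were kept. Scrublet's automatic threshold marked 4 cells in each library, so the highest 6% of scores were removed, with ties 6.27% and 6.80%. Clusters came from 2000 variable genes other than the histone genes, 30 components, 15 neighbours and Leiden resolution 1 (scanpy 1.11.5, leidenalg 0.10.2). UMIs were summed and divided by totals to give CPM. Intervals are exact binomial ones for the UMIs of a gene between libraries; UMIs of 1 cell are not independent. The ratio computation was tested on simulated data. Scalings used edgeR 4.0.16 and DESeq2 1.42.0.

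A cluster name needed 3 raised markers (20 CPM or more, and a log2 fold over other cells of 0.5 or more) and more of its markers among the 10 leading genes than any other class. A first version settled ties. After its names were seen, ties were left without a name: cluster 7 (6.34% of cells in the media control library, 6.95% in the other; immature neutrophil-like before), 12 (2.22% and 1.62%; progenitor-like before), 14 (1.92% and 1.78%; monocyte-like before), 15 (1.53% and 1.62%; mature neutrophil-like before) and 19 (0.259% and 0.155%; megakaryocyte-like before).

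The histone genes and the gene lists were chosen with earlier results of these data known. Genes given with values are the 3 of highest mean CPM in each class, those past the fold limit, and the 4 of highest mean CPM in each list. Slbp, Npat, Lsm10, Lsm11, Tipin, Cdk1, Lsm1, Nudt21, Hmga1, Hmgn3, Hist1h2ab, Hist1h2ao, Hist1h1a, Hist1h3a, Hist3h2a and Hist1h2bc were chosen after values were seen. So were the genes at the ends of ranges, the head-to-head pairs, the motifs and the split at 100 bases. The limit of 2-fold between parts of cells and the printed sequences were also chosen then. Stem-loops, windows and coding sequences were read from GENCODE M21 transcripts. Promoters came from RefSeq, matched by Ensembl gene identifier or else by symbol or synonym (56 of 62). The planned protein comparison was replaced by coding bases. Alternatives changed cell filters, doublet removal, scaling, cell weights, depth, stage and cell-cycle mix, and clustering.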

Additional observations from a re-analysis of the deposited data

How the results depend on the processing

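No paired analysis was possible because the cells of each group carry no sample and each group is 1 library. For the same reason no replicate could be left out. The count of histone genes past the fold limit stayed at 17 to 21 on the higher side and 2 to 4 on the lower under every alternative run, and the median log2 ratio at 0.19 to 0.29. No alternative reversed a sum. The summed log2 ratios of all histone genes, H1, H2a, H2b, H3 and H4, in that order, were 0.28, -0.16, 0.61, 0.16, 0.14 and 0.43 with DESeq2 size factors and 0.28, -0.16, 0.60, 0.15, 0.14 and 0.43 with TMM factors, which both shift all genes by about -0.05. They were 0.36, -0.082, 0.68, 0.23, 0.22 and 0.50 with totals that leave out the 20 highest genes, and 0.39, -0.028, 0.70, 0.28, 0.25 and 0.51 with cells thinned to 5000 UMIs, which left out 662 and 647 cells. They were 0.28, -0.12, 0.61, 0.11, 0.11 and 0.43 as a mean within clusters. As a mean over cells they were 0.36, -0.060, 0.67, 0.22, 0.24 and 0.51, and within parts of cells by S phase share, with limits from both libraries, 0.36, -0.079, 0.73, 0.22, 0.25 and 0.47. Without any cell filter the sum of all was 0.34. In an alternative chosen after seeing the data, leaving out Hist1h2ap, the sum of all was 0.15 and that of H2a 0.22. The highest over the lowest part by S phase share, 2.57 (media control) and 2.61 (deoxycholic acid), was 2.82 and 2.88 when cells were ranked by the G2 and M phase list, 2.26 and 2.04 with thinned cells, 3.64 and 3.50 in immature neutrophil-like clusters alone and, chosen after seeing the data, 0.92 and 0.76 without clusters 1 and 3, where 28 and 19 histone genes were at least 2-fold higher, against 60 and 58. The share of clusters with a higher histone sum, 17 of 18, was 8 of 10 at resolution 0.5, 23 of 26 at resolution 2 and 16 of 19 with histone genes in the clustering. Over 34 single genes, 214 of 304 alternative values stayed within the counting interval, and 9 changed sign, all of Hist1h1e, Hist1h3c or Hist2h2ac. Hist1h2ah was at 0.27, Hist2h2ab at 0.42 and Hist1h2bp at 0.45 in the lowest of their alternatives, under the fold limit. Depth limits genes with few UMIs, such as Hist1h3h with 42 UMIs in 1 library, and mRNA without a captured A-rich end is not seen at all.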

Other observations

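The summed histone share varied widely between cells of 1 cluster. In the progenitor-like cluster 0 of the media control, the 10th, 50th and 90th percentiles of cells held 0.0505%, 0.405% and 1.04% of their UMIs in histone genes. In the mature neutrophil-like cluster 1 the median cell held 0.0289% and the 90th percentile 0.0792%.

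Of the 5 histone genes under the limit of 50 UMIs, Hist1h2aa had 27 UMIs over all media control barcodes and 0 over all deoxycholic acid barcodes. Hist1h1t, a linker histone gene of the testis, had 18 and 15. Hist1h2bq had 0 and 4, Hist1h2ba 3 and 0, and Hist2h2aa2 0 and 2. No fold is given for these.

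Cluster 17, led by Cdkn2a and Cald1 and with raised Col1a1, Col1a2, Col3a1, Sparc and Dcn, is the cluster nearest to the irradiated feeder in its genes, and it stays unnamed. Its histone sum was 839 CPM in the media control and 1142 CPM with deoxycholic acid, from 86 and 64 cells.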
